A study of Mus musculus with 6 samples.

Results

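The miR-15/16 family in embryonic mouse cardiomyocytes comprised 14 of the 689 miRNAs listed in the table of the series. Members were chosen by name alone, as every listed miRNA with the number of a main strand named in the next sentence, whatever its letter, arm or copy. The 14 entries were 7 main strands (miR-15a, miR-15b, miR-16, miR-195, miR-322, miR-497 and miR-503) and 7 opposite strands, which carry an asterisk in their name and come from the other arm of the same hairpin. Together they held 0.964% of the miRNA reads, and miR-16 alone made up 65.5% of that amount, followed by miR-322 with 24.3%.

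miRNA-Seq was performed on wild-type cardiomyocytes from E16.5 mouse embryos grown on collagen 1 coated Bioflex plates, which have a flexible membrane. The labels give 3 samples held under static conditions for 24 h and 3 samples stretched cyclically by 16% at 1 Hz for 24 h, with no other treatment in either group. The labels name Swiss Webster mice, the methods name CD1 mice and 6 samples per group, and how many embryos or cultures each sample came from is not given in the sources used here. The study asked which miRNAs respond to stretch, but the levels below are the authors' mean over all libraries, which joins both conditions, so they carry no spread between samples, no depth and no difference between static and stretched cells. Neighbours in the order of levels therefore cannot be separated by a test.

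In animal cells a miRNA guides an Argonaute protein to partly matching sites, most of them in 3' UTRs, where the bound transcript is silenced. Target choice is led by the seed, a short run near the 5' end, and miRNAs that share a seed can recognise the same sites. The miR-15/16 family is known for holding back cell division, through cyclins, checkpoint kinases and other cell cycle genes, and in the mouse heart its rise around birth is known to accompany the exit of cardiomyocytes from the cell cycle.

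The seed defines the family, so the mature main strands are shown first, 5' to 3', from RefSeq GRCm38.p6, with bases 2 to 8 in capitals and in order of level. miR-16 is made from 2 hairpins that give the same mature sequence.
miR-16: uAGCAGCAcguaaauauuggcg
miR-322: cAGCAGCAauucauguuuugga
miR-15b: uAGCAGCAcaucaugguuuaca
miR-15a: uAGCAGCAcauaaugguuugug
miR-503: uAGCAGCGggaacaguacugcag
miR-195: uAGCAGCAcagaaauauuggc
miR-497: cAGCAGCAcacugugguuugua

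Bases 2 to 8 were AGCAGCA in 6 of the 7 main strands and AGCAGCG in miR-503. All 7 lie on the 5' arm of their hairpin. Over all positions compared, seed included, miR-16 and miR-195 were identical at 19 of 21, and miR-15a and miR-15b at 18 of 22. For miR-497 and miR-503 it was 10 of 22, the fewest among the 21 pairs. The sequences diverged after base 8, where these pairs were identical at 11 of 13, 10 of 14 and 4 of 14 positions, in that order. The longest run of bases shared by any pair was 11 nt, between miR-15a and miR-15b. The authors kept tags of 18 to 30 nt, so no kept tag with an exact match could belong to a pair of these main strands at once. Whether tags with mismatches were counted for the wrong member, such as miR-16 tags for miR-195, was not tested.

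The main strands differed in level by up to 1223-fold. miR-16 held 0.631% of all miRNA reads and ranked 21 of 689. It stood next to miR-100 at 0.637% and miR-151-3p at 0.607%. miR-322, the mouse counterpart of human miR-424, held 0.234% and ranked 36, between miR-199a-5p at 0.252% and miR-34c at 0.231%. miR-16 was 2.70 times miR-322 in level and 25.2 times miR-15b, so the family's reads came almost wholly from the leading pair, which together made 89.7% of them.

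miR-15b followed at 0.0250% (rank 110), between miR-744 at 0.0258% and miR-221* at 0.0248%. miR-15a held 0.00459% (rank 197) and was next to miR-376c, also at 0.00459%, and miR-299 at 0.00446%. miR-15b was 5.46 times miR-15a, although both sit beside a copy of miR-16 in the genome. miR-503, the member with the different seed, held 0.00323%, between miR-138 at 0.00325% and miR-543 at 0.00317%.

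The least abundant main strands were miR-195 and miR-497, a pair known for its rise in the mouse heart after birth. miR-195 held 0.000542% (rank 328), between miR-671-5p at 0.000555% and miR-141 at 0.000526%. miR-497 held 0.000516% (rank 332), between miR-222* at 0.000521% and miR-7a at 0.000511%. Their ratio was 1.05, and both lay close to the median of all listed miRNAs, 0.000420%. miR-195, the main strand nearest to miR-16 in sequence, was thus among the main strands farthest from it in level. For scale, the 5 most abundant miRNAs were miR-22 with 20.5%, miR-143 with 13.3%, miR-99b with 11.6%, miR-27b with 7.46% and miR-127 with 7.15%.

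**Figure D1:**
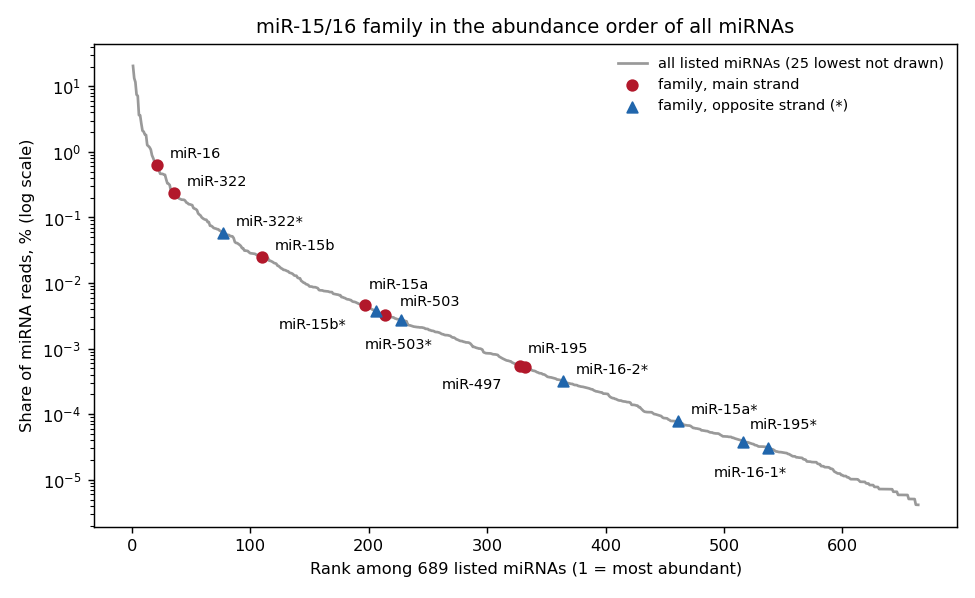
Share of miRNA reads in percent (log axis) against rank for the listed miRNAs (grey line), with the main strands of the family as red circles and the opposite strands as blue triangles; each point is the authors' mean over all libraries, with no spread. miR-16 at 0.631% and miR-322 at 0.234% sit near the top of the curve, while miR-195 and miR-497 lie close to the median.

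The opposite strands held 0.0650% of the miRNA reads, or 6.74% of the family's. miR-322* was the most abundant at 0.0581% (rank 77) and exceeded 5 of the 7 main strands: it was 2.32 times miR-15b, the next below it. miR-15b* held 0.00369% (rank 206) and miR-503* 0.00274% (rank 227). The other four were rarer: miR-16-2* at 0.000318% (rank 364), miR-15a* at 7.76e-05% (rank 461), miR-195* at 3.81e-05% (rank 516) and miR-16-1* at 3.08e-05% (rank 537). The lowest of these, miR-16-1*, was 7.42 times the smallest level that could be read as a share in the table. miR-195* was 9.19 times and miR-15a* 18.7 times that level. Counts per sample were not analysed, so how many reads these levels rest on is not known, and it may be few. In all, 10 of the 14 members were above the median listed miRNA.

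Usually 1 arm of a hairpin is kept by the Argonaute protein and the other is degraded. The ratios given here are of reads, and how evenly the library preparation captured the arms was not tested. The main strand was above the opposite strand in the 5 hairpins with both strands listed under their own name, but by very different amounts. The ratio was 59.2 for miR-15a, 14.2 for miR-195, 6.78 for miR-15b, 4.03 for miR-322 and 1.18 for miR-503. The ratios of miR-15a and miR-195 depend on rare opposite strands that may rest on few reads. The table lists 168 miRNA pairs that differ by the asterisk, and in 8 of them the opposite strand was too low to be read as a share. Over the other 160 pairs the median ratio was 21.7, with quartiles of 4.59 and 307, and in 15 pairs (9.38%) the asterisk strand was the higher. A smaller ratio than that of miR-503 was found in 10% of the pairs, and than that of miR-322 in 23.1%. miR-15a was the only one of the 5 above the median, also with the 8 left-out pairs placed above all others, where the median was 27.4. Over the 51 pairs with both strands above 0.001% of the reads, a set without miR-15a and miR-195, the median ratio was 7.93, and miR-15b, miR-322 and miR-503 were still below it.

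**Figure D2:**
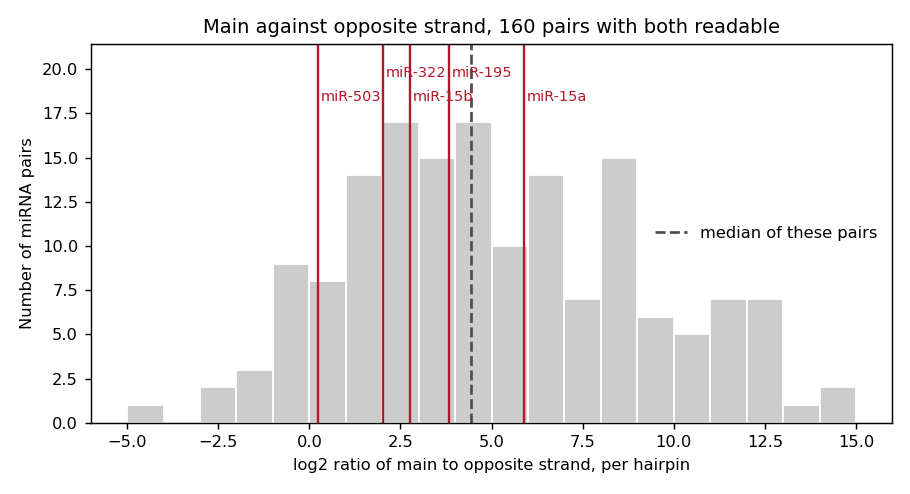
Number of miRNA pairs by the log2 ratio of the main to the opposite strand, for the 160 listed pairs with both strands high enough to be read as a share; red lines mark the 5 pairs of the family and the dashed line the median of these pairs. miR-503 lies near 0, where both strands are equal, and miR-15a is the one family pair to the right of the median.

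The strands of the X-linked hairpins are shown because their arms were the closest to each other in level. In the hairpin sequences, from RefSeq GRCm38.p6, both mature strands are in capitals, the 5' one being the main strand. Mir322 lies at chrX:53054255-53054349 (-) and Mir503 at chrX:53053984-53054054 (-).
Mir322: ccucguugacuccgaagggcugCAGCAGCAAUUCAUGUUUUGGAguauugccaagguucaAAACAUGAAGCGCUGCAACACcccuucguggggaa
Mir503: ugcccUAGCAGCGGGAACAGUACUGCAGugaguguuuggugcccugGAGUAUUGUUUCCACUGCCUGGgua

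miR-503* carries AGUAUUG at bases 2 to 8 and miR-322* carries AACAUGA, so neither has the seed of the family. The 2 hairpins lie 200 bases apart, yet miR-322 was 72.5 times miR-503 in level, and miR-322* was 21.2 times miR-503*.

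miR-16 comes from Mir16-1 at chr14:61631880-61631972 (-), which overlaps an annotated exon of the non-coding gene Dleu2, and from Mir16-2 at chr3:69009902-69009996 (+), in an intron of Smc4, a condensin subunit gene. The mature miR-16 sequence is the same at both sites, so its level cannot be divided between them. The opposite strands differ, and are shown with bases 2 to 8 in capitals.
miR-16-1*: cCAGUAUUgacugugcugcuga
miR-16-2*: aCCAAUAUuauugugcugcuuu

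miR-16-2* was 10.3 times miR-16-1*, so 91.2% of the opposite strands of miR-16 came from Mir16-2 on chromosome 3. Both were rare, and miR-16 was 1808 times their sum, so this split describes the opposite strands and not miR-16 itself. The level of miR-16-1* may rest on few reads, so the size of the split is uncertain. The neighbouring hairpins showed the same order. Mir15b, at chr3:69009772-69009835 (+) and 66 bases from Mir16-2, gave 5.46 times more main strand and 47.6 times more opposite strand than Mir15a, at chr14:61632027-61632110 (-) and 54 bases from Mir16-1. The ratio of 47.6 depends on miR-15a*, which may also rest on few reads. Mir15b lies in an intron of Smc4 and Mir15a in an intron of Dleu2, each on the strand of its host.

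**Figure D3:**
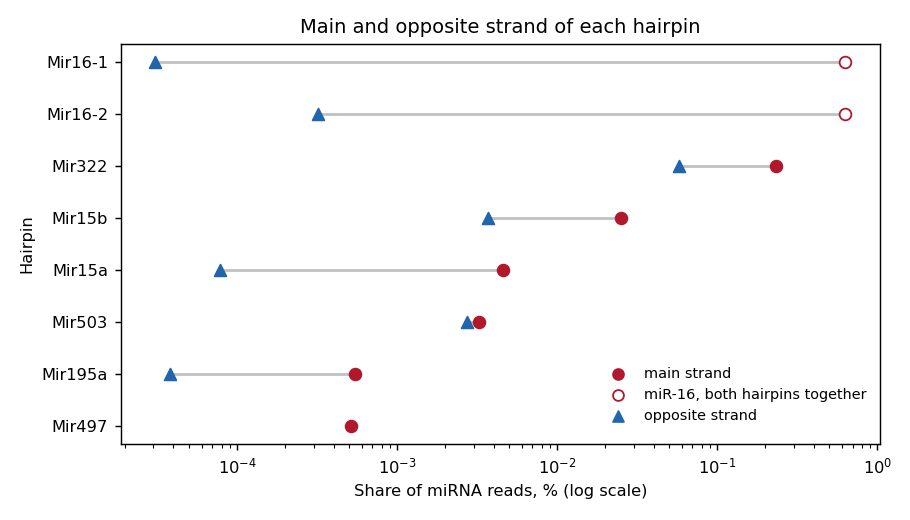
Share of miRNA reads in percent (log axis) of the main strand (circles) and opposite strand (triangles) for each of the 8 hairpins; open circles show miR-16, whose level joins both of its hairpins. The arms of Mir503 nearly coincide, whereas miR-16 lies far to the right of both miR-16-1* and miR-16-2*, and Mir497 has a main strand only.

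The 8 hairpins form 4 pairs, on chromosomes 3, 11, 14 and X. Mir497 at chr11:70234717-70234800 (+) and Mir195a at chr11:70235042-70235135 (+) are 241 bases apart, with no host gene on their strand in GENCODE, and their main strands were nearly equal in level. No listed row matched the opposite strand of miR-497. On chromosomes 3, 11 and 14 no other listed miRNA with a matched sequence lay within 10 kb of a member. On chromosome X there were 9, which together held 2.13% of the miRNA reads, against 0.298% for the 4 members there. That sum was almost wholly miR-351, a miRNA of the miR-125 seed group, at 2.04% (rank 10) and 8.70 times miR-322. miR-450a held 0.0515% and miR-542-3p 0.0219%, while the remaining 6 ranged from 2.86e-05% (miR-450a-2*) to 0.00730% (miR-450b-5p). Members on chromosome X made up 30.9% of the family's reads.

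**Figure D4:**
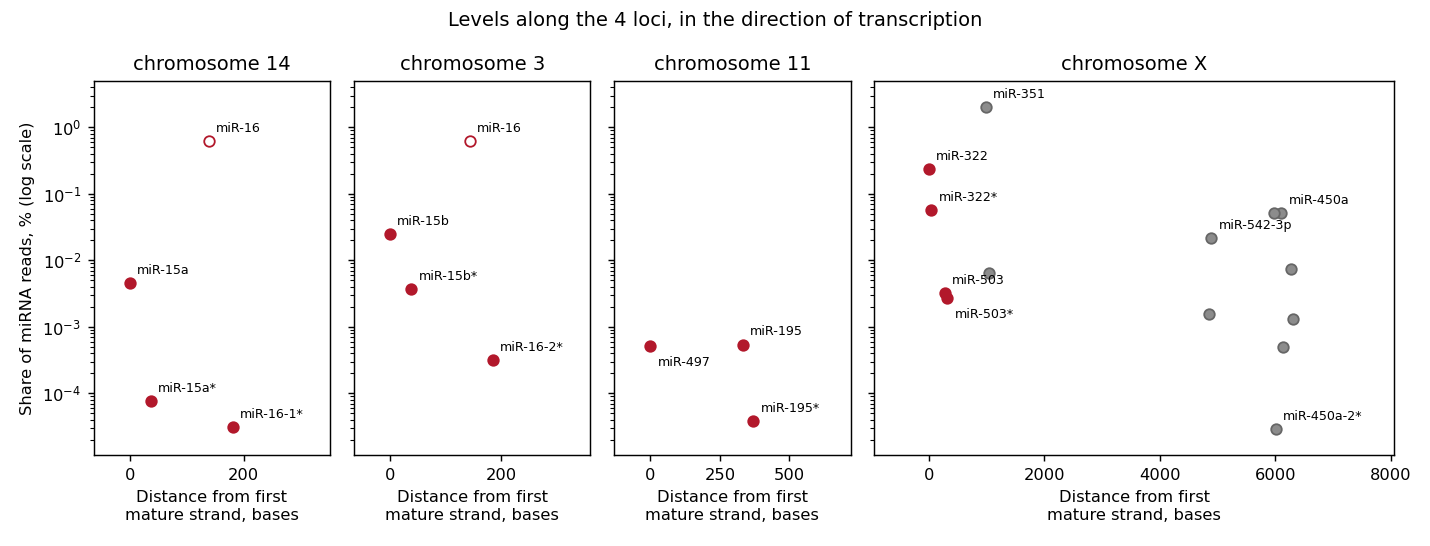
Share of miRNA reads in percent (log axis) against the distance in bases from the first mature strand, in the direction of transcription, for the 4 loci; red points are members, open red points are miR-16 (the same value at both of its hairpins) and grey points are other listed miRNAs. Levels within a locus spread widely on chromosome X, from miR-351 at 2.04% to miR-450a-2* at 2.86e-05%. They did so too on chromosome 14, from miR-16 at 0.631% to miR-16-1* at 3.08e-05%. On chromosome 11 the main strands miR-497 and miR-195 lie at nearly the same height, with miR-195* below them at 3.81e-05%.

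Grouped by seed, the 6 miRNAs with AGCAGCA summed to 0.896% of the reads. RefSeq sequences were matched to all but 475 of the 689 listed miRNAs, and the matched ones held 80.3% of the reads and gave 190 seeds. Among these the AGCAGCA group was the 13th by summed level. The 12 groups above it were led by miR-22, miR-99b, miR-27b, miR-127, let-7f, miR-351, miR-191, miR-26a, miR-21, miR-148a, miR-208b and miR-181a. The miRNAs with no matched sequence held 19.3% of the reads, so the place of the group among all seeds is not known. One of them, miR-143 at 13.3%, was on its own above the AGCAGCA sum. Each group's sum covers matched miRNAs only. For example, miR-26b, miR-148b and let-7b were not counted with miR-26a, miR-148a and let-7f. Of the 11 RefSeq mature sequences with either seed of the family, miR-195b, miR-6342, miR-6353 and miR-6419 had no matched row.

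**Figure D5:**
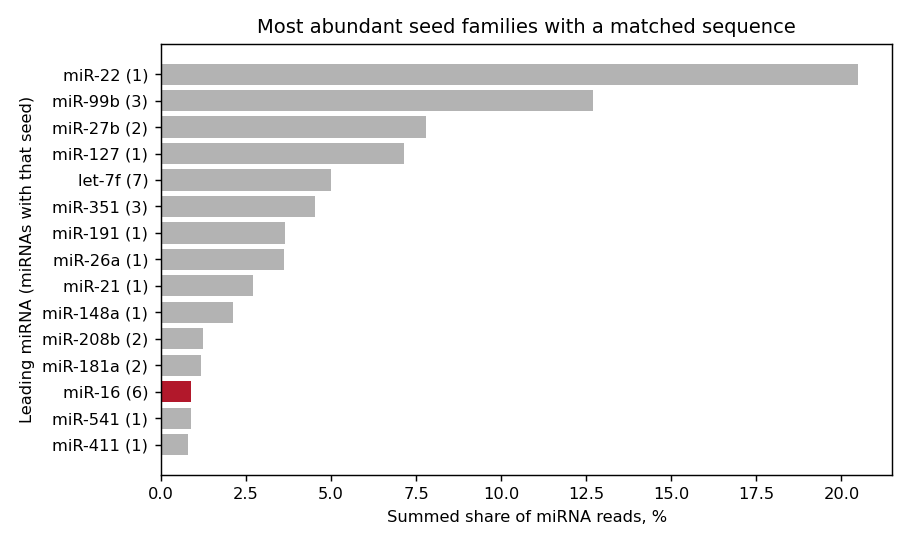
Summed share of miRNA reads in percent for the 15 most abundant seed groups with a matched sequence. Each is named by its leading miRNA, with the number of matched miRNAs in parentheses. The group led by miR-16 (red) stands 13th with 0.896%, and miRNAs without a matched sequence, such as miR-143, are not drawn.

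miR-103 and miR-107 are often compared with the family because the same run of 7 bases opens their sequence 1 base earlier, as the capitals show.
miR-103: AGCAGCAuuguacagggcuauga
miR-107: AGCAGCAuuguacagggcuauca

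miR-103 held 0.154% (rank 51) and miR-107 0.0129%, and miR-16 was 4.09 times miR-103. Their opposite strands were rare, with miR-107* at 0.000153% and miR-103-2* at 3.21e-05%.

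A list of cell cycle and survival genes, many of them known targets of the family, was examined in sequence only, since the files hold no messenger RNA. The match to bases 2 to 8 of miR-16 is TGCTGCT, searched on the transcript strand in the longest 3' UTR that GENCODE gave for each gene. It was present in 14 of 16 cell cycle and survival genes, or 87.5%, and in 4261 of all 21010 genes with a 3' UTR, or 20.3%. The 16 genes were picked largely because they are known targets, so their count is not independent evidence of anything, and their 3' UTRs were longer, with a median of 1764.5 nt against 960 nt. There were 19 matches, of which 10 were followed by an A. Overlapping matches were counted singly, as in Cdk6, which held 3. No match was found in Anln, a cleavage furrow protein, or Plk1, a mitotic kinase, which says only that these letters are absent from that 3' UTR.

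One match each is shown for 5 genes that span the cycle, from GRCm38, with the seed match in capitals: Ccnd1 and Ccne1, cyclins of the G1 phase and of the entry into S phase, Cdc25a, a phosphatase that activates cyclin-dependent kinases, and Chek1 and Wee1, kinases that restrain them. Their positions are chr7:144930387-144930409 (-), chr7:38098016-38098038 (-), chr9:109892862-109892884 (+), chr9:36710283-36710305 (-) and chr7:110142660-110142682 (+), in that order.
Ccnd1: tgccaccaTGCTGCTggcccggg
Ccne1: tttgtaagTGCTGCTatgtctat
Cdc25a: accagtatTGCTGCTactcaaag
Chek1: gaatagagTGCTGCTatgtgaca
Wee1: tgtgaattTGCTGCTattttagt

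The labelled cell type was checked by its miRNAs. Those known from cardiomyocytes (miR-1, miR-133, miR-208 and miR-499) were all listed, with 14 rows that summed to 1.51%, led by miR-208b at 1.17%. miR-133a held 0.186% and miR-1a 0.0395%, both less than miR-16. Those of other cells in the heart were present too. miR-143 and miR-145, known from smooth muscle, summed to 13.4%, with miR-143 at 13.3% and miR-145 at 0.0694%. The fibroblast miRNAs miR-199a, miR-199b and miR-214 summed to 0.622% (0.464% with miR-199a-3p and miR-199b, which share 1 value, counted once). For miR-126, known from endothelium, the sum was 0.477%, with miR-126-5p at 0.464% and miR-126-3p at 0.0129%. The pair checked for immune cells, miR-142 and miR-223, summed to 0.00811%, and miR-451 and miR-144, known from red blood cells, to 0.000179%. The family's summed level was thus below those of the cardiomyocyte and smooth muscle miRNAs, the latter being nearly all miR-143. It was above those of the fibroblast, endothelial, immune and red blood cell miRNAs. All of these are shares of a mixed RNA, in which fewer cells of a type and less RNA per cell cannot be told apart, and how much of each member came from cells other than cardiomyocytes was not tested.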

How the data were processed

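Small RNA libraries were made from 3 static and 3 stretched samples of E16.5 mouse cardiomyocytes (6 in the labels). Per the methods, the authors kept tags of 18 to 30 nt, aligned them to the mouse genome (Bowtie2), summed hits by gene ID and used edgeR; the submitters' processing notes name Bowtie2 and DESeq. The genome build is not given in the sources used here. The values used are the mean abundance that the authors deposited for each miRNA over all libraries, on a log2 scale. How the libraries were averaged is not given in the sources used here; for a mean of logs, the level is a geometric mean.

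The other 4 columns hold the authors' own comparison of stretched with static cells (fold changes, p-values and adjusted p-values) and were not used. Counts per sample were not analysed here, so depth and its precision are unknown, the planned edgeR test of stretch against static was not run, and no interval is given.

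A level is 2 to the power of the deposited value, in percent of miRNA reads. These shares sum to 99.5%, against 30.2% for base e. For 25 miRNAs the value lies below a log2 of -30, and these were ranked but not read as shares; no member was among them. Names were matched to RefSeq mature miRNAs (GRCm38.p6) where they were identical or, for older names without an arm, where the arm known to be abundant was assigned by hand; other names were left without a sequence. Host genes and 3' UTRs came from GENCODE (GRCm38). Named miRNAs were all members, listed miRNAs sharing a seed with them, miR-103 and miR-107 with their opposite strands, the neighbours in level of each main strand, the 5 most abundant miRNAs and the leaders of higher seed groups. miRNAs near the hairpins, cell type miRNAs and the cell cycle genes were named as separate lists. The members and lists were chosen with earlier results of these data known. The family sum, the ranks and the strand ratios were tested on simulated data, and the choice of members by name on a few names. Sequence matching, seed groups, hairpin windows and 3' UTR searches were not tested in that way. The tools were pandas 2.3.3 and numpy 2.4.6 under Python 3.11.15, with matplotlib 3.10.9 for the plots.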

Additional observations from a re-analysis of the deposited data

How the results depend on the processing

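The summed level of the family was 0.969% with the shares rescaled to 100%, 0.899% for the main strands and also for members chosen by seed, and 0.964% with identical abundances counted once. It depends on the base of the log scale: 0.0860% for base e and 5.11e-06% for base 10, bases under which the shares of all miRNAs sum to 30.2% and 0.756%. All 14 member levels fell under those bases too. All 14 ranks stayed within 1.5 times when identical abundances were counted once. Leaving out low abundances could not change a rank, since every member ranks above them. Counting identical abundances once could not change the family's sum, since no member shares its abundance. Choosing members by seed returned the same miRNAs as the main strands, so it was not a separate check. The factor of 1.5 is a set limit and not a spread, which a pooled mean does not have. The share of miR-16 in the family was 70.2% of the main strands, 77.9% for base e and 96.4% for base 10. Settings chosen after seeing the data were windows of 5 and 50 kb on chromosome X, with 2.07% and 2.13% for the other miRNAs, and strand pairs with both strands above 0.001%, whose median ratio was 7.93 over 51 pairs, or all 168 pairs, with 27.4. No paired analysis was possible because each miRNA has 1 pooled mean. Size factors from DESeq2, no filter on low counts and leaving out each replicate were not run either, since they need counts per sample.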
